A study of Xenopus tropicalis with 12 samples.

Results

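The livers of *Xenopus tropicalis* tadpoles given thyroid hormone for 18 h were compared with livers of untreated tadpoles of the same stage. The comparison covered 6 of the 12 liver RNA libraries of the study: 3 from tadpoles treated at stage 54, for 18 h, with T3 (triiodothyronine, the hormone's active form) at 10 nM, and 3 from untreated stage 54 tadpoles (st54). All were wild type and, per the labels, shared their parents. Each group's samples came from different tadpoles, per the study's design text. The other 6 libraries, 3 each from untreated tadpoles at stages 61 and 66, entered the model as further groups. Their spread therefore also counted in the p-values. Libraries were assigned to the groups by their labels. No vehicle treatment is described for the untreated tadpoles, and the sources used here do not say whether livers were pooled.

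Thyroid hormone drives amphibian metamorphosis. It acts through nuclear receptors that sit on target genes as partners of retinoid X receptors, holding the genes down without hormone and activating them with it. Its earliest targets include the gene of its own receptor beta and several transcription factors. The tadpole liver is remodelled rather than lost during metamorphosis.

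The 3 T3 libraries were almost copies of each other. Their Spearman correlations across genes, which are not independent replicates, were 0.999 for each pair, and the chi-square per gene between pairs was 1.97 to 5.46, against 38.1 to 124 between st54 libraries. Sampling noise alone gives about 1. A value above 1 does not tell separate tadpoles from repeat libraries of 1 RNA pool, and these cannot be told apart here; the T3 libraries entered as 3 samples, following the labels, and results with them summed to 1 are given beside. The biological coefficient of variation was 2.57% in T3 and 33.5% in st54. In 93.5% of the genes tested the T3 libraries spanned a narrower range than the st54 libraries. The untreated side was less uniform: st54 replicate 3 correlated at 0.956 to 0.957 with the T3 libraries and at 0.944 and 0.946 with st54 replicates 1 and 2. It was also the shallowest of the 6, with 12481902 counts, against 27665558 to 39536147 in T3 and 23308776 and 29387091 in the other two st54 libraries. Ribosomal protein genes took 6.92% to 7.62% of counts in T3, and 9.79%, 8.85% and 12.9% in st54 replicates 1 to 3.

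**Figure D1:**
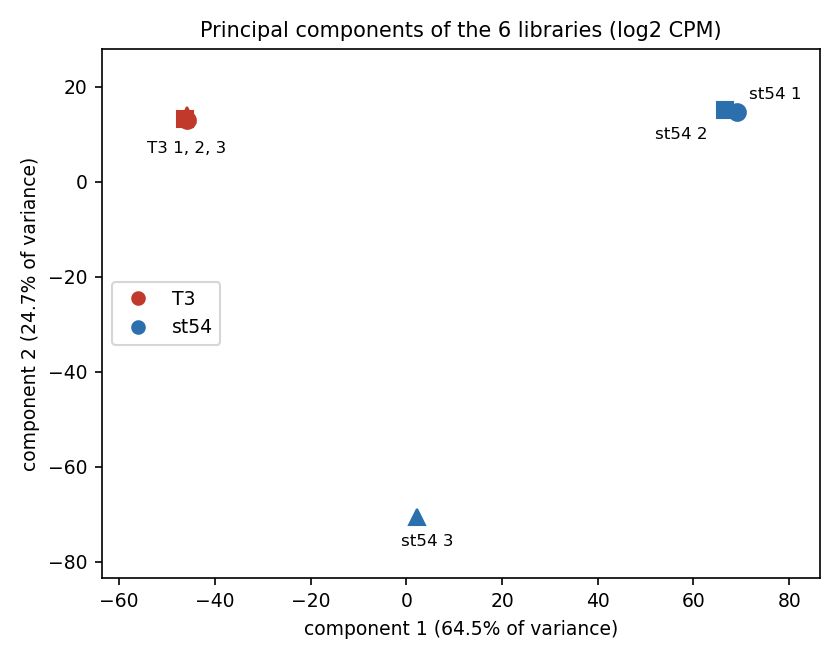
Principal components of log2 CPM in the 3 T3 and 3 st54 libraries (circle, square and triangle are replicates 1, 2 and 3). The T3 libraries lie between -46.2 and -45.8 on component 1 and st54 replicates 1 and 2 at 69.1 and 66.5, while st54 replicate 3 lies at 2.29 on component 1 and at -70.5 on component 2.

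Of 15102 genes tested, 1430 were higher and 1140 lower in T3 livers than in st54 livers at an adjusted p under 0.05 (edgeR's quasi-likelihood test, Benjamini-Hochberg adjusted; all adjusted p below are of this kind unless another tool is named). These were 9.47% and 7.55% of the genes tested, 17% together. At least 2-fold changes made up 779 of the increases and 668 of the decreases. The counts depended on which libraries entered. Leaving out 1 T3 library gave 537 to 555 higher and 205 to 216 lower. Without st54 replicate 1 the counts were 578 and 351, without st54 replicate 2 they were 673 and 366, and without st54 replicate 3 they were 2249 and 2142. With the 3 T3 libraries summed to 1 sample, 62 genes were higher and 0 lower, with 1810 genes at an unadjusted p under 0.05. All 62 were among the 1430. DESeq2, with the T3 libraries kept apart, called 1863 higher and 1898 lower. Of 152 called genes chosen by the naming rule or added to it, 76 lost their call when some 1 library was left out, and 136 with T3 summed. Among the called genes named below, those that passed with T3 summed were *thrb*, *bcl6*, *nfic*, *nfib*, *nfix*, *ccl4*, *mmp9.2*, *atp4a*, *ankrd2*, *acod1*, *il18bp*, *adamts5*, *bcl2l11* and *alg2*.

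Because the T3 libraries were so close, genes were also ranked by separation, the log2 distance between the nearest T3 and st54 libraries. All T3 libraries lay above all st54 libraries in 3996 genes (26.5%) and below them in 3752 (24.8%). Without st54 replicate 3 these numbers were 6033 and 5880. Near-identical libraries often fall together outside the range of a few others without any true difference, and more often when fewer are left. Separation alone is therefore no evidence of a response. A separation of at least 1, a 2-fold distance between the nearest libraries, was met by 464 genes above and 140 below. Every one of the 1430 increases was separated, whereas 62 of the 1140 decreases overlapped. Among the called decreases, st54 replicate 3 was the st54 library nearest to the T3 mean in 73% of genes, and among the called increases in 56.2%, against 46.9% of all genes tested. The widest separations were then taken among the 9372 genes with a mean of at least 10 CPM. Of the 100 widest of these above st54, 98 were called, and of the 100 widest below st54, 84 were called.

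Of the genes listed as responding directly to thyroid hormone, all but *dio3*, described below, were higher in T3 livers. That list, like the others, was chosen with earlier results of these data known, so its share of calls is no independent test. Of 8 tested members of that list 7 rose and 0 fell, against 9.47% of all genes tested rising, and the median log2 change was 3.03, against -0.05 over all genes tested. The same number rose when any 1 library was left out, and 3 with the T3 libraries summed. *thrb*, which encodes receptor beta (chromosome 6, 46687270 to 46933187), stood at 24.4, 24.0 and 24.6 CPM in T3 livers, against 0.99, 1.59 and 0.492 CPM in st54 livers. It rose 22.2-fold, a log2 change of 4.47 with a standard error of 0.29 (adjusted p = 1.44e-05). The groups lay far apart, and *thrb* was among the 62 genes that passed with T3 summed.

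*thibz*, which encodes a basic leucine zipper protein (chromosome 3, 140193605 to 140202878), stood at 58.6, 58.0 and 60.5 CPM in T3 livers, against 0.129, 0.485 and 2.87 CPM in st54 livers. The highest st54 level was that of replicate 3. The gene rose 59.5-fold (adjusted p = 0.00242). *klf9*, a zinc finger gene that the receptor activates, had 38.6, 36.7 and 37.6 CPM in T3 livers and 5.64, 9.28 and 8.78 CPM in st54 livers, and rose 4.77-fold (adjusted p = 0.00301). *bcl6*, a transcriptional repressor gene, had 83.4, 81.8 and 82.0 CPM in T3 livers and 16.9, 15.9 and 11.4 CPM in st54 livers, and rose 5.58-fold (adjusted p = 0.0004). No library of either group overlapped the other in any of these genes. *mmp11*, a matrix protease gene known as a hormone response gene in frog tissues, had 1.97, 2.28 and 2.62 CPM in T3 livers and 0.0861, 0.0346 and 0 CPM in st54 livers, where 3 reads were counted in all (adjusted p = 0.00507).

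The deiodinases behaved differently from each other. *dio2*, whose enzyme makes T3 from its precursor, stood at 7.11, 6.12 and 6.98 CPM in T3 livers, against 1.81, 1.49 and 2.30 CPM in st54 livers, and rose 3.67-fold (adjusted p = 0.00116). *dio3*, whose enzyme inactivates the hormone, stood at 349, 350 and 361 CPM in T3 livers, against 918, 1000 and 463 CPM in st54 livers (log2 change -1.17, adjusted p = 0.163). All T3 levels of *dio3* were below all st54 levels, but the st54 libraries differed among themselves by more than 2-fold. *thra*, which encodes receptor alpha, had 7.19, 7.10 and 6.53 CPM in T3 livers and 3.44, 3.91 and 5.91 CPM in st54 livers (adjusted p = 0.0758).

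Among 19 receptor and coregulator genes 2 rose and 1 fell, near the 9.47% and 7.55% of all genes tested. Besides *thrb*, *rxrb*, a retinoid X receptor gene, rose 1.55-fold (adjusted p = 0.0122, and up to 0.0582 with 1 library left out), while *rxrg*, of the same family, fell 2.94-fold (adjusted p = 0.00156). Its levels were 29.3, 29.0 and 29.1 CPM in T3 livers and 77.3, 101 and 78.7 CPM in st54 livers. Of 10 genes of hormone transport and deiodination 3 rose and 4 fell, and without any library other than st54 replicate 3 the numbers were 2 and at most 1. *slc7a5*, a transporter of large neutral amino acids and thyroid hormone, rose 4.71-fold (adjusted p = 0.00722), and *ttr*, the plasma carrier transthyretin, fell 2.07-fold (adjusted p = 0.0111, and up to 0.0623 with 1 library left out).

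Genes of the nuclear factor I (NFI) family, which encode DNA-binding transcription factors, were among those with the smallest p. This family was put together after its values were seen, apart from *nfic*, which was in the hormone response list. *nfic* (chromosome 1, 98082761 to 98160607) stood at 52.6, 51.0 and 52.7 CPM in T3 livers, against 3.36, 4.47 and 5.33 CPM in st54 livers. It rose 11.9-fold (log2 change 3.58, standard error 0.19, adjusted p = 3.57e-06). *nfib* had 89.5, 86.3 and 92.2 CPM in T3 livers and 13.9, 15.6 and 14.0 CPM in st54 livers, and rose 6.15-fold (adjusted p = 1.14e-05). *nfix* rose 7.57-fold (adjusted p = 5.98e-05). All these levels were separate. *nfia*, the fourth member, had 13, 12.2 and 13.2 CPM in T3 livers and 9.26, 12.1 and 9.02 CPM in st54 livers (adjusted p = 0.495). *nfic*, *nfib* and *nfix* all passed with T3 summed.

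**Figure D2:**
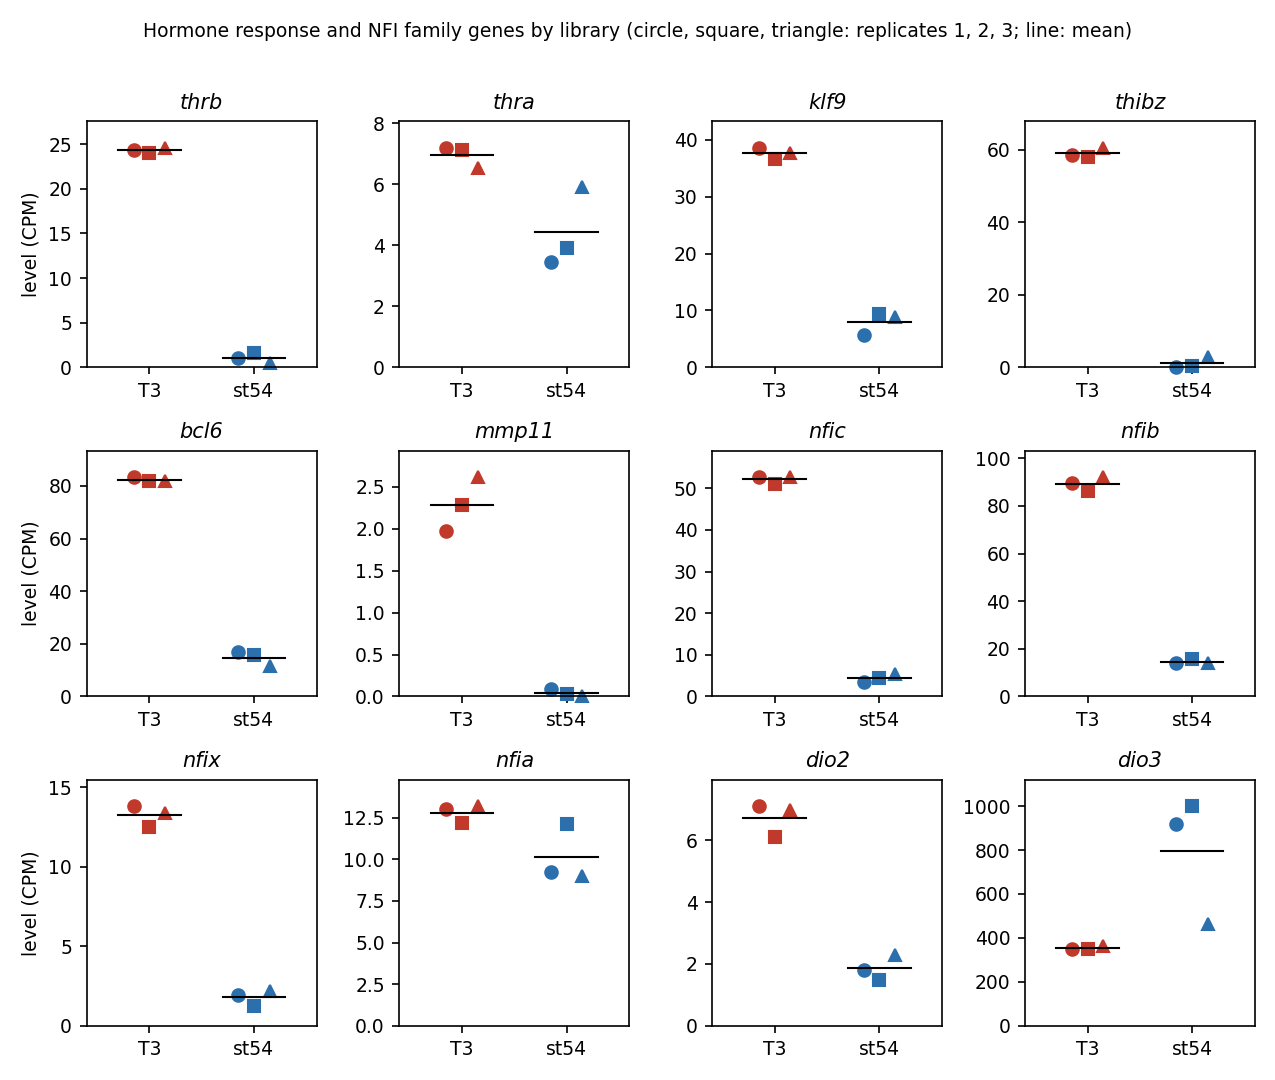
Levels (CPM, linear axes from 0) of hormone response and NFI family genes in each T3 and st54 library, with the group mean as a line. The T3 points of *thrb* lie between 24.0 and 24.6 CPM, far above st54, while the T3 points of *dio3* lie between 349 and 361 CPM, below st54 points that spread from 463 to 1000 CPM.

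The widest separations above st54 included genes expressed at trace levels in st54 livers. *ccl4*, a chemokine gene (chromosome 2, 97662524 to 97666006), had 44.0, 43.6 and 45.4 CPM in T3 livers and 0.732, 0.90 and 0.574 CPM in st54 livers, and rose 58.1-fold (adjusted p = 7.47e-08). *mmp9.2*, a gelatinase gene (chromosome 10, 19964004 to 19971510), had 129, 130 and 128 CPM in T3 livers and 0.474, 0.277 and 2.95 CPM in st54 livers, and rose 123-fold (adjusted p = 0.000424). *atp4a*, the catalytic subunit gene of the gastric proton pump (chromosome 7, 129428950 to 129450183), had 11.9, 11.6 and 10.6 CPM in T3 livers and 0.129, 0 and 0 CPM in st54 livers, where 3 reads were counted in all. Each passed with T3 summed, with adjusted p of 9.25e-05 for *ccl4*, 0.0157 for *mmp9.2* and 0.00876 for *atp4a*.

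*olfm4*, a secreted glycoprotein gene, reached 1190, 1270 and 1340 CPM in T3 livers, against 37.6, 19.1 and 68.7 CPM in st54 livers, and rose 30.3-fold (adjusted p = 0.00242). *slc1a4*, a transporter of small neutral amino acids, had 324, 330 and 329 CPM in T3 livers and 0.818, 0.866 and 20.4 CPM in st54 livers, and rose 46.3-fold (adjusted p = 0.00757). As with *thibz*, st54 replicate 3 was the nearest st54 library in both. *acod1*, the enzyme that makes itaconate in activated macrophages, rose 17.2-fold (adjusted p = 0.0004). *myl3* and *ankrd2*, genes of striated muscle, rose 83.7-fold (adjusted p = 0.016, on 9 reads in st54) and 41.6-fold (adjusted p = 0.000217). The *myl3* call was lost without any 1 T3 library and without st54 replicate 1 or 2 (adjusted p up to 0.0706), whereas *ankrd2* kept its call in each of these and with T3 summed. Of 13 skeletal muscle markers 1 was at 0 in every library and 9 were tested, of which 0 rose and 1, *tpm2*, fell. Over all genes tested, 9.47% rose and 7.55% fell. *acta1*, not called (adjusted p = 0.138), had 9.16, 10.0 and 10.6 CPM in T3 livers and 0.172, 0.312 and 3.2 CPM in st54 livers. T3 and st54 levels overlapped in the remaining tested markers. The summed level of the tested markers was 41.1 to 42.8 CPM in T3 livers, and 24.1, 24.6 and 70.5 CPM in st54 replicates 1 to 3. The part of muscle tissue in these values was not tested.

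**Figure D3:**
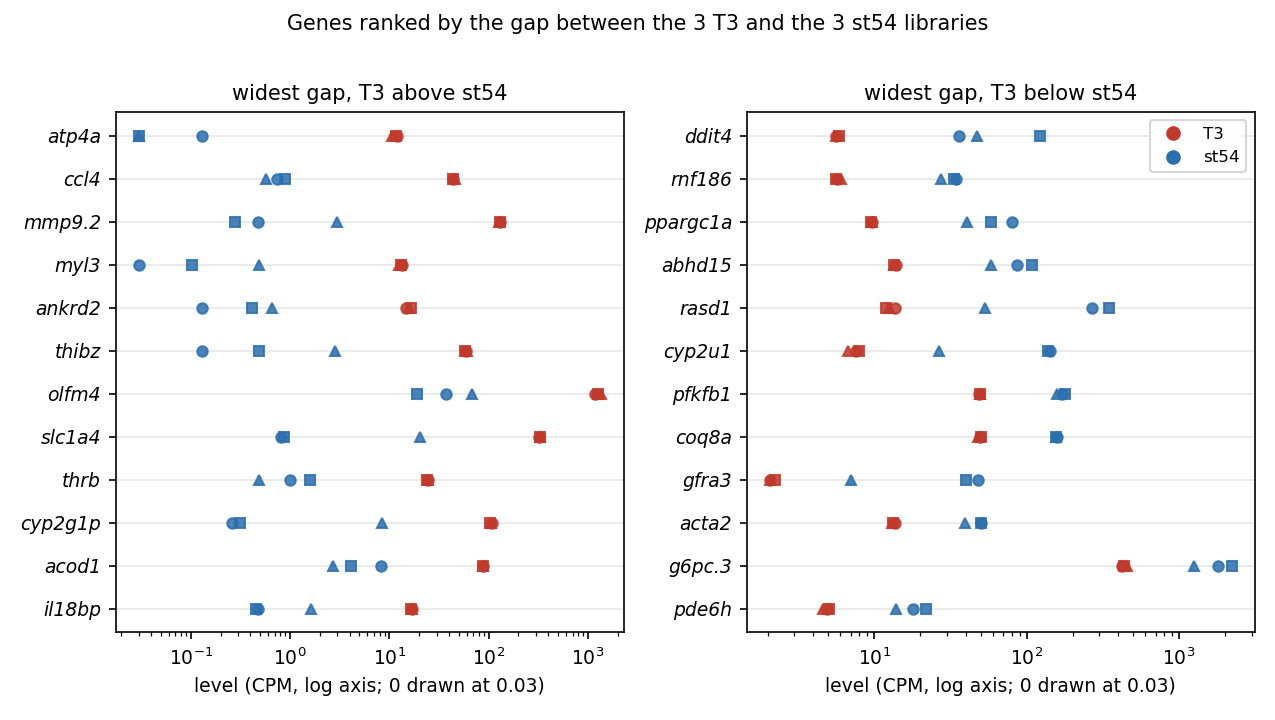
Levels (CPM, log axes) in each library of the 12 called genes with the widest separation above st54 (left) and below it (right); circle, square and triangle are replicates 1, 2 and 3. The T3 points of each gene fall nearly on each other, and for *slc1a4*, *cyp2u1* and *gfra3* the st54 triangle is nearer to T3 than the other st54 points.

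Chemokine, cytokine and matrix protease genes were among the increases. Among 75 listed chemokine and interleukin genes with their receptors, a list made after values were seen, 54 were tested, 17 rose and 3 fell, against 9.47% and 7.55% of all genes tested. With 1 library left out 9 to 19 rose and 0 to 9 fell, both highest without st54 replicate 3, and with T3 summed 5 rose and 0 fell. *il10*, an anti-inflammatory cytokine gene chosen after its values were seen, had 16.4, 15.4 and 17.8 CPM in T3 livers and 1.72, 3.67 and 0.984 CPM in st54 livers, and rose 7.51-fold (adjusted p = 0.00199). *il18bp*, which encodes an interleukin 18 inhibitor, rose 21.7-fold (adjusted p = 0.000362). *cxcr4*, a chemokine receptor gene named after its values were seen, fell 3.29-fold in the fit (log2 change -1.72, adjusted p = 0.0326, and up to 0.142 with 1 library left out), but its T3 levels of 20.6, 21.1 and 20.9 CPM lay within the st54 levels of 115, 70.3 and 19.9 CPM. Of 14 tested macrophage markers 1 rose and 2 fell, against 9.47% and 7.55% of all genes tested. Their summed level was 1107 to 1109 CPM in T3 livers and 1001 to 1987 CPM in st54 livers. Without *mpo*, the most abundant of them, the ranges were 779 to 786 CPM in T3 livers and 793 to 1270 CPM in st54 livers, which nearly touch. The TMM factors that scale these levels were 1.19 to 1.25 in T3 and 0.977 to 0.997 in st54. Whether so narrow a gap depends on that scaling was not tested. The part of these markers in the cytokine values was not tested. In bulk tissue, a change in the number of cells of a type and a change in RNA per cell cannot be told apart.

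Of 23 matrix proteases and inhibitors 8 rose and 1 fell, against 9.47% and 7.55% of all genes tested. With 1 library left out 4 to 7 rose. *adamts5*, an aggrecan-cleaving protease gene, rose 6.72-fold (adjusted p = 0.000508), and *timp3*, a protease inhibitor gene named after its values were seen, rose 2.69-fold (adjusted p = 0.00647). Of 28 apoptosis genes 6 rose and 0 fell, against 9.47% of all genes tested rising. The number was 8 without st54 replicate 3, 2 to 4 without any other library and 1 with T3 summed. *bcl2l11*, a pro-apoptotic gene, had 55.1, 54.8 and 56.1 CPM in T3 livers and 11, 15.4 and 16.1 CPM in st54 livers, and rose 3.91-fold (adjusted p = 0.000121). Of 45 Wnt pathway genes 5 rose, close to the 9.47% of all genes tested, among them *axin2*, a feedback target of the pathway (11.8-fold, adjusted p = 0.00218). The count for the Wnt pathway was 10 without st54 replicate 3 and 4 in the lowest other case. Of 23 antigen presentation and interferon genes 5 rose and 1 fell, against 9.47% and 7.55% of all genes tested. Among them *irf2*, an interferon regulatory factor gene, rose 2.41-fold (adjusted p = 0.000613). The rising number was 3 without any library other than st54 replicate 3.

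Genes of 2 secretory pathway lists rose and none of them fell. Of 29 genes of protein folding in the endoplasmic reticulum 16 rose and 0 fell, against 9.47% of all genes tested rising. Above st54 in all libraries lay 25 of the 29, against 26.5% of all genes tested. The median log2 change was 1.43. *dnajb9*, a co-chaperone gene, had 72.0, 72.1 and 77.9 CPM in T3 livers and 22.6, 10.1 and 13.2 CPM in st54 livers, and rose 4.83-fold (adjusted p = 0.00235). *hspa5*, the main chaperone of that compartment, had 870, 907 and 925 CPM in T3 livers and 222, 83.3 and 145 CPM in st54 livers, and rose 6-fold (adjusted p = 0.0249, chosen after its values were seen). *hyou1*, another chaperone gene chosen in the same way, rose 10.7-fold (adjusted p = 0.0387). Both calls were lost without any 1 T3 library and without st54 replicate 1 or 2 (adjusted p up to 0.0941 for *hspa5* and 0.134 for *hyou1*). Among regulators of the folding response, also chosen after their values were seen, *atf6* rose 3.02-fold (adjusted p = 0.0186, lost in the same 5 cases, with p up to 0.0811), and *xbp1* (log2 change 0.38, adjusted p = 0.312), *atf4* (-0.17, adjusted p = 0.641) and *ddit3* (0.22, adjusted p = 0.612) were not called. Whether these genes differ from each other was not tested.

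The number of folding genes that rose was 23 without st54 replicate 3, 3 to 5 with any other library left out, and 0 with T3 summed. *hsp90b1*, a chaperone gene named after its values were seen, with 957, 999 and 1020 CPM in T3 livers and 176, 130 and 354 CPM in st54 livers, was not called (adjusted p = 0.051). Its standard deviation at stage 66, which also entered the fit, was 744 CPM. With upper-quartile factors 27 of the 29 genes had a positive log2 change, against all 29 with TMM factors. Of 40 translocon and vesicle coat genes 23 rose and 0 fell, against 9.47% of all genes tested rising. Their median log2 change was 0.81. *sec23a*, a coat component gene, had 58.6, 58.6 and 59.5 CPM in T3 livers and 17.1, 17.0 and 14.7 CPM in st54 livers, and rose 3.62-fold (adjusted p = 0.0041). *srp54*, a signal recognition particle gene, rose 2.69-fold (adjusted p = 0.00887). The count was 31 without st54 replicate 3 and 3 or 4 with any other library left out. Of 31 tested genes of N-linked glycan assembly, a list made after values were seen, 11 rose and 0 fell, 17 without st54 replicate 3 and 3 to 6 without any other library, *alg2*, a mannosyltransferase gene, rising 3.14-fold (adjusted p = 9.46e-05).

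**Figure D4:**
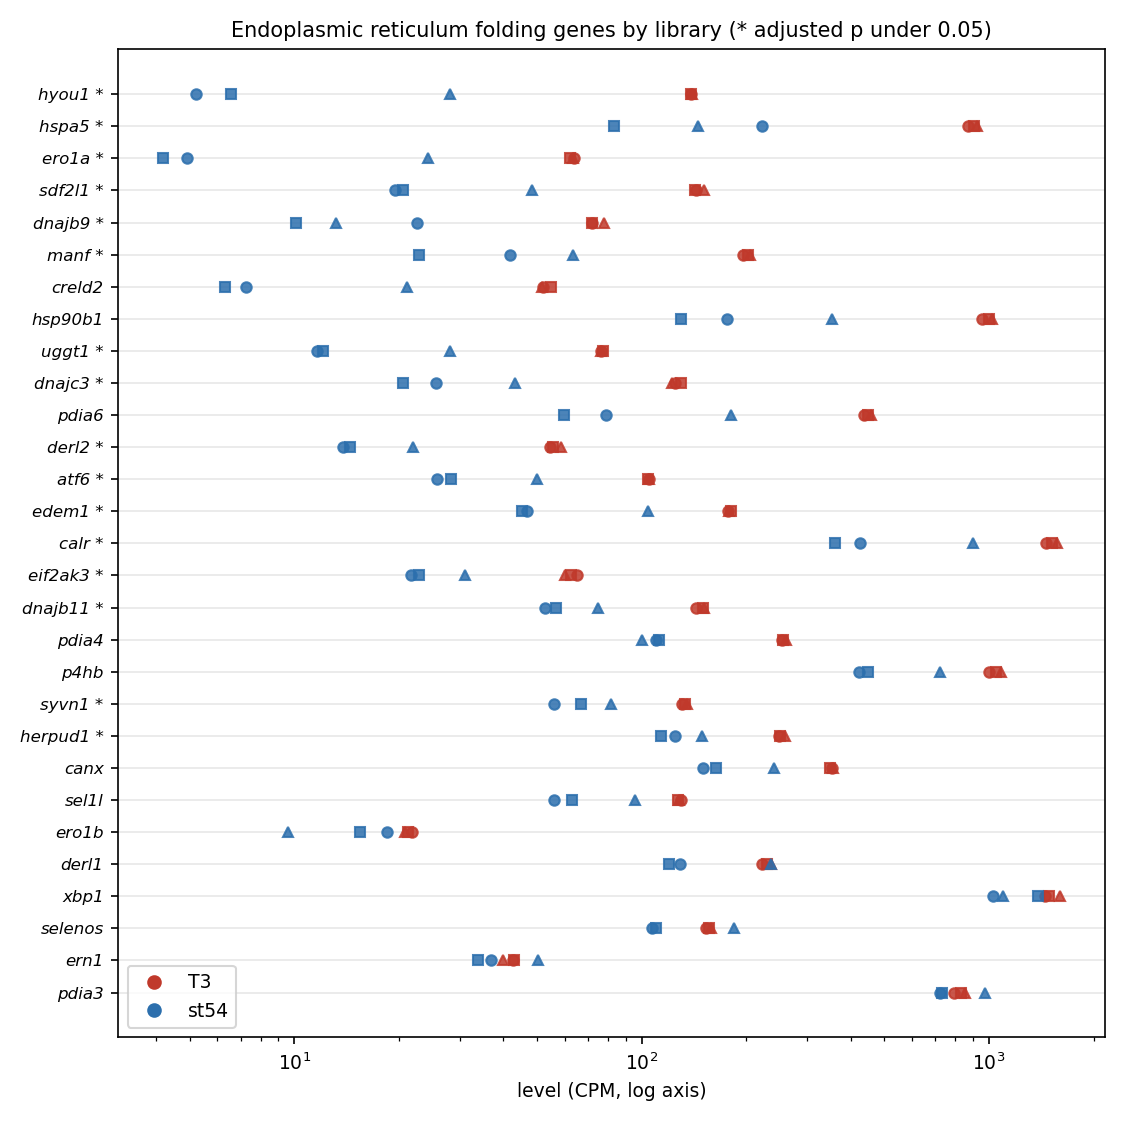
Levels (CPM, log axis) of the 29 tested endoplasmic reticulum folding genes in each library (circle, square and triangle are replicates 1, 2 and 3; an asterisk marks an adjusted p under 0.05). In 25 genes the T3 points lie to the right of all st54 points, and st54 replicate 3 is often the st54 point closest to them.

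Genes of protein synthesis moved in more than one way. Over all genes tested, 9.47% rose and 7.55% fell. Of 20 transfer RNA synthetase genes 9 rose and 0 fell, *tars1* having 93.8, 93.9 and 94.1 CPM in T3 livers and 8.53, 12 and 37.7 CPM in st54 livers (4.89-fold, adjusted p = 0.00929). The number was 10 without st54 replicate 3 and 1 or 2 without any other library. Of 47 ribosome biogenesis genes 10 rose and 1 fell, and 39 lay above all st54 libraries, against 26.5% of all genes tested. The biogenesis count was 14 without st54 replicate 3 and 1 without any other library. The cytosolic ribosomal protein genes lay the other way. None of 73 was called in edgeR, yet all 73 lay below every st54 library, against 24.8% of all genes tested. Their median log2 change was -0.81, and it was -0.84 with RLE and -0.90 with upper-quartile factors. *rpl3* had 2060, 2190 and 2330 CPM in T3 livers and 3940, 3750 and 4750 CPM in st54 livers (adjusted p = 0.126). DESeq2 called 5 of them lower, and edgeR on the 6 libraries alone called all 73. *rpl3* itself was called in only 2 of 15 alternative settings, the 6 libraries alone and voom with a weight per group. It was not called with any 1 library left out.

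Of 16 heat shock genes 5 rose and 1 fell, against 9.47% and 7.55% of all genes tested. The heat shock numbers were 2 or 3 rising and 0 falling without any library other than st54 replicate 3. *hsph1*, a cytosolic chaperone gene, had 29.8, 30.4 and 28.7 CPM in T3 livers and 2.28, 4.68 and 3.94 CPM in st54 livers, and rose 8.16-fold (adjusted p = 0.00351). Of 38 proteasome genes 3 rose, near the 9.47% of all genes tested, and 0 fell. The proteasome count was 17 without st54 replicate 3. However, the 3 calls, *psma4*, *psmd6* and *psme4*, were each lost without any 1 T3 library and without st54 replicate 1 or 2. Their adjusted p then ran up to 0.0983, 0.137 and 0.159.

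Several genes of carbohydrate and lipid metabolism fell. Of 33 genes of glycolysis, gluconeogenesis and glycogen 10 fell and 0 rose, against 7.55% of all genes tested falling, with a median log2 change of -0.54. *pfkfb1*, the liver gene for the enzyme that sets fructose bisphosphate signalling, had 48.5, 49.8 and 49.2 CPM in T3 livers and 170, 179 and 158 CPM in st54 livers, and fell 3.44-fold (adjusted p = 0.000424). *pklr*, pyruvate kinase, fell 1.75-fold (adjusted p = 0.00713). *pck1*, the gluconeogenic carboxykinase gene chosen after its values were seen, had 1060, 1100 and 1120 CPM in T3 livers and 3110, 3120 and 4070 CPM in st54 livers (adjusted p = 0.273). Its adjusted p was 0.00161 in edgeR on the 6 libraries alone, but the gene was not called in the other 14 of 15 alternative settings. The list's number was 11 without st54 replicate 3 and 2 to 4 without any other library.

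*cyp7a1*, the rate-limiting enzyme gene of bile acid synthesis (chromosome 6, 116352903 to 116357128), had 67.5, 67.4 and 67.6 CPM in T3 livers, against 1430, 1770 and 118 CPM in st54 livers. It fell 16.4-fold (adjusted p = 0.0168), and st54 replicate 3 stood close to the T3 libraries. The call was lost without any 1 T3 library, without st54 replicate 1 or 2 (adjusted p up to 0.0745) and with T3 summed (adjusted p = 0.401). Of 18 bile acid genes 3 rose and 4 fell, against 9.47% and 7.55% of all genes tested. The bile acid numbers were 2 rising and 1 or 2 falling without any library other than st54 replicate 3. *fgf19*, a bile acid hormone gene, rose 6.88-fold (adjusted p = 0.00119), and *fgfr4*, its receptor gene, fell 3.1-fold (adjusted p = 0.00341). Of 27 cholesterol synthesis genes 4 fell and 0 rose, against 7.55% of all genes tested falling. The cholesterol number was 9 without st54 replicate 3 and 0 or 1 without any other library. *ppargc1a*, a coactivator gene of oxidative metabolism, had 9.69, 9.57 and 9.64 CPM in T3 livers and 80.5, 58.6 and 40.9 CPM in st54 livers, and fell 6.23-fold (adjusted p = 0.0113, and up to 0.0565 without 1 T3 library). Of 71 respiratory chain genes 4 fell, below the 7.55% of all genes tested, and 0 fell when any 1 library was left out. Below all st54 libraries lay 47 of the 71, against 24.8% of all genes tested.

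The widest separations below st54 also held regulators of stress and growth. *ddit4*, a stress-induced inhibitor of the growth kinase mTOR (chromosome 7, 40994514 to 40996977), had 5.65, 5.91 and 5.61 CPM in T3 livers and 36.2, 122 and 47.2 CPM in st54 livers, and fell 12-fold (adjusted p = 0.00879). *rasd1*, a glucocorticoid-induced small GTPase gene, fell 17.5-fold (adjusted p = 0.019, and up to 0.081 with 1 library left out), with 13.7, 12 and 12.6 CPM in T3 livers and 268, 347 and 53.6 CPM in st54 livers. *rnf186*, a ubiquitin ligase gene, had 5.69, 5.6 and 6.04 CPM in T3 livers and 34.2, 33.3 and 27.4 CPM in st54 livers, and fell 5.48-fold (adjusted p = 0.00034). Of 14 genes of corticosteroid receptors, enzymes and targets 3 fell and 0 rose, against 7.55% of all genes tested falling. The 3 were *ddit4* and the enzyme genes of corticosteroid conversion, *hsd11b1* and *hsd11b2*. The number was 1 without any library other than st54 replicate 3. Of 19 clock genes 5 fell and 0 rose, against 7.55% of all genes tested falling. Among the 5 were *cry2* (2.76-fold, adjusted p = 0.00301) and *nr1d2* (1.8-fold, adjusted p = 0.00669). The clock number was 8 without st54 replicate 3 and 2 or 3 without any other library. The hour at which livers were taken was not found in the sources used here, and its part in these values was not tested.

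**Figure D5:**
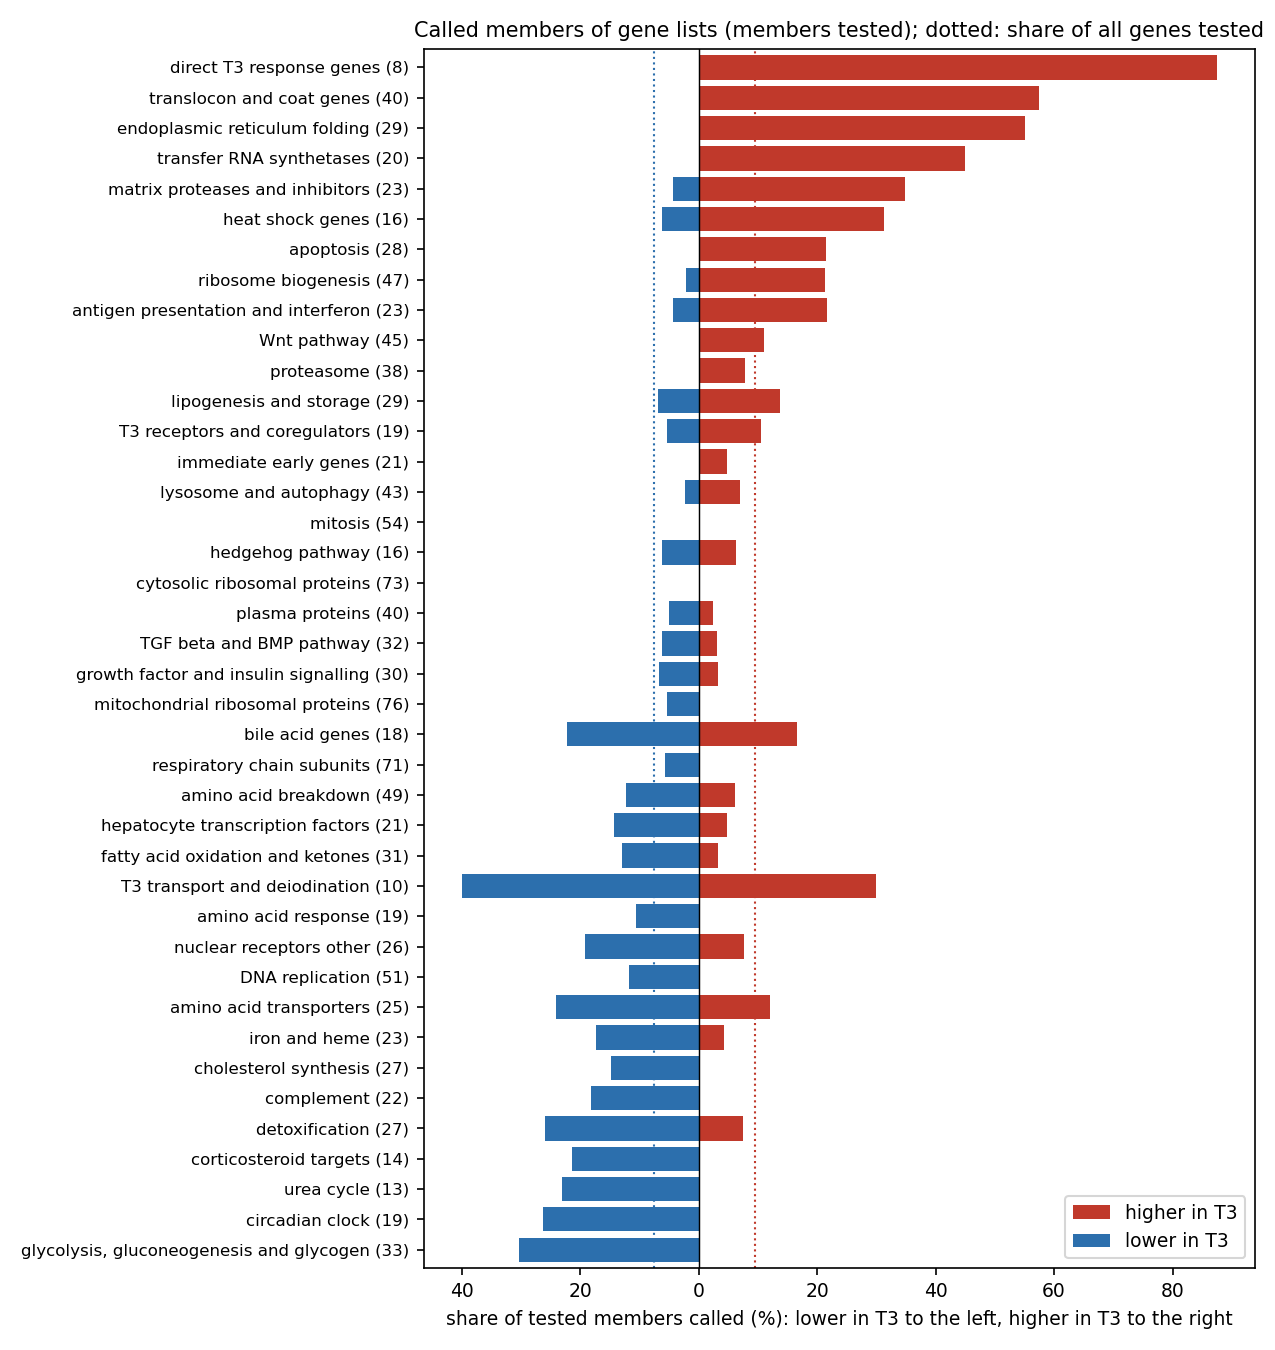
Share of the tested members of each gene list that was called lower (left of 0) or higher (right of 0) in T3 livers, with the number tested in parentheses and dotted lines at 9.47% and 7.55%, the shares of all genes tested. Direct T3 response genes had 7 of 8 called higher, and decreases include 4 of 10 T3 transport genes and 10 of 33 glycolysis genes. The lists were chosen with earlier results of these data known.

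With all libraries, more genes fell than rose in the nitrogen, detoxification and blood-related lists. Over all genes tested, 9.47% rose and 7.55% fell. Of 13 genes of the urea cycle and of glutamate and glutamine steps linked to it, 3 fell and 0 rose. Outside the cycle itself, *glud1*, glutamate dehydrogenase, fell 2.23-fold (adjusted p = 0.00796) and *gls2*, a glutaminase gene, fell 4.01-fold (adjusted p = 0.0101). The only called gene of the cycle itself was *arg1*, arginase, which fell 2.95-fold (adjusted p = 0.0472, and up to 0.143 with 1 library left out). *cps1*, the entry enzyme gene of the cycle, stood at 1010, 1010 and 1020 CPM in T3 livers and 1770, 1710 and 1090 CPM in st54 livers (adjusted p = 0.116). *bhmt*, a methyltransferase gene of methionine metabolism, rose 7.71-fold (adjusted p = 0.00156), with 993, 1030 and 1070 CPM in T3 livers and 80.3, 93.3 and 228 CPM in st54 livers. Of 27 detoxification genes 2 rose and 7 fell, the falling number being 10 without st54 replicate 3 and 3 to 6 without any other library. *cyp2u1*, a fatty acid hydroxylase gene, fell 13.8-fold (adjusted p = 0.00204), and *mgst1*, a glutathione transferase gene, fell 2.78-fold (adjusted p = 0.00687). Of 25 amino acid transporter genes 3 rose and 6 fell, and of 49 amino acid breakdown genes 3 rose and 6 fell. Of 26 other nuclear receptor genes 2 rose and 5 fell. Of 29 lipogenesis genes 4 rose and 2 fell, and of 31 fatty acid oxidation genes 1 rose and 4 fell. Of 22 complement genes 0 rose and 4 fell, and of 40 plasma protein genes 1 rose and 2 fell. Of 76 mitochondrial ribosomal protein genes 0 rose and 4 fell, below the 7.55% of all genes tested. Without st54 replicate 3 the mitochondrial numbers were 8 and 3, and 9 complement genes fell. Without any other library 0 fell in both lists, and at most 3 fell in each of the other 6 lists just given.

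Genes of DNA replication and of mitosis were counted separately, and whether these lists differ from each other was not tested. Of 51 DNA replication genes 6 fell and 0 rose, against 7.55% of all genes tested falling. *pcna*, the replication clamp gene, fell 1.53-fold (adjusted p = 0.0263, and up to 0.108 with 1 library left out). The replication count was 14 without st54 replicate 3 and 0 or 1 without any other library. None of 54 mitosis genes was called by edgeR with all libraries, and *mki67*, a proliferation marker gene, had 73.4, 69.0 and 70.4 CPM in T3 livers and 56.7, 60.7 and 62.8 CPM in st54 livers (adjusted p = 0.815).

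Both groups held hepatocyte markers at high levels. All 14 were tested, 0 rose and 2 fell, against 9.47% and 7.55% of all genes tested, and none was at 0. *alb*, albumin, had 5800, 6370 and 6830 CPM in T3 livers and 11400, 11300 and 9450 CPM in st54 livers (adjusted p = 0.0759). Summed hepatocyte markers were at 41010 to 46120 CPM in T3 livers and 54940 to 60980 CPM in st54 livers. Summed erythroid markers were at 8905 to 10380 CPM in T3 livers and 12390 to 23130 CPM in st54 livers. Summed endothelial markers were at 1864 to 1877 CPM in T3 livers and 1075 to 1676 CPM in st54 livers, but without *stab2*, a scavenger receptor gene (adjusted p = 0.174), the ranges were 769 to 782 CPM in T3 livers and 771 to 810 CPM in st54 livers, which overlap. Summed bile duct markers were at 896 to 961 CPM in T3 livers and 1319 to 1913 CPM in st54 livers, but without *anxa4*, an annexin gene (adjusted p = 0.0294), the ranges were 230 to 235 CPM in T3 livers and 180 to 380 CPM in st54 livers, which overlap. Summed fibroblast markers were at 735 to 755 CPM in T3 livers and 802 to 1248 CPM in st54 livers, and at 599 to 614 CPM in T3 livers and 600 to 1020 CPM in st54 livers without *vim*, a filament gene. Exocrine pancreas markers overlapped, at 2608 to 2730 CPM in T3 livers and 1233 to 4479 CPM in st54 livers. The part of these cell types in the changes above was not tested.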

How the data were processed

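The authors deposited 1 table of raw read counts per gene, used as deposited; its column names, per the file headers, are of trimmed alignments with duplicates marked. cutadapt 3.4 and STAR 2.7.8a are named per the submitters' processing notes. The sources used here do not give build, strand setting or handling of marked duplicates. Start and end of 99.1% of 26529 genes equal those in UCB_Xtro_10.0; coordinates are the table's. Lines of 2 genes, broken over 6 lines, were left out. Values of overlapping genes and near-identical copies (cytochrome P450 genes, *mmp9.2*) are uncertain. Columns of no known sample numbered 0.

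All 12 libraries were fitted in edgeR 4.0.16 (limma 3.58.1, R 4.3.3) with TMM factors, filterByExpr and a robust quasi-likelihood model, with 8 residual degrees of freedom, and the fit was tested on simulated data. CPM use TMM-scaled totals. Separation used log2 CPM with a prior count of 2. A count of 3, taken as the floor, is worth 0.0759 to 0.24 CPM of unscaled totals in the 6 libraries and covers counting error only. DESeq2 1.42.0 and other settings were alternatives. P-values measure the spread between samples within all 4 groups. The biological coefficient of variation was 23.9% at stage 61 and 40.3% at stage 66.

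Genes were named by rule: 12 called genes each way by separation and 6 by fold, with at least 10 CPM and a symbol; up to 3 called members of each list; and 12 fixed genes. Not every gene the rule gives is described, and some are not reported here. The members and lists were chosen with earlier results of these data known. Genes or lists added after their values were seen are marked so. Counts for those lists with 1 library left out, and marker sums without the most abundant marker, were chosen after seeing the data. Same-numbered T3 and st54 libraries did not deviate together (correlations 0, -0.024 and -0.036).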

Additional observations from a re-analysis of the deposited data

How the results depend on the processing

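Higher and lower counts (1430 and 1140 as reported, 55.6% of calls higher) were 1385 and 1207 with RLE factors and 1168 and 1478 (44.1% higher) with upper-quartile factors. They were 1346 and 826 without the low-count filter, 1119 and 869 in thinned libraries, and 1863 and 1898 with DESeq2. Fitting the 6 libraries alone gave 2412 and 2339, and voom with a weight per group gave 2547 and 2304. With T3 summed they were 62 and 0, the lone sample being assumed to vary like the other groups. With replicate number as a block they were 1098 and 696, though the numbers do not pair the samples. Leaving out 1 library gave 537 to 2249 higher and 205 to 2142 lower, both highest without st54 replicate 3. The share of calls that was higher ran from 51.2% to 72.6%. Separated genes numbered 4175 to 6033 above and 3967 to 5880 below with 1 library left out. A gene meets this separation more easily when fewer libraries must lie apart. The cause of the differing numbers of calls was not tested.

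Among the genes reported here, signs reversed for 3, none of them called in these settings. *ins* (-0.19 as reported) had log2 changes of 0.864 with voom and 0.033 with the replicate block, and -0.72 to 2.166 with 1 library left out, positive without st54 replicate 1. *atf4* (-0.175) ran from -0.347 to 0.015, positive without st54 replicate 1. *gpnmb* (-0.424) ran from -0.687 to 0.224, positive without st54 replicate 3. T3 and st54 libraries overlap in all 3. *ins* is at or below 5.64 CPM in all 6 libraries, where depth limits precision.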
